A study of Mus musculus with 4 samples.

Results

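Heme and iron handling genes were examined in mouse hearts after myocardial infarction. The group holds 7 of the 21885 genes in the count tables: Hmox1, Blvrb, Ftl1, Fth1, Slc40a1, Tfrc and Slc11a1. They were selected on measured values of these hearts, namely their levels across the sections and by the share of cardiomyocyte RNA in a spot. Levels by section and by zone are therefore a description, with no test. Tests were kept for splits of the infarct zone that the selection did not use and for other genes of the same pathways.

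Heme released from dying cells and red cells is opened by heme oxygenase to biliverdin, carbon monoxide and iron, and biliverdin is then reduced to bilirubin. The iron is stored in ferritin, a shell of heavy and light chains, or leaves the cell through ferroportin, while most cells take iron up by the transferrin receptor. Macrophages carry much of this flow in the body, since they engulf aged and damaged red cells and return the iron to the blood.

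Gene expression was captured on grids of spots (10x Genomics Visium) from 10 micrometre sections of fresh frozen hearts. Mice of every group were 8 to 12 weeks old and of the Collagen1a1-GFP+ genotype, a reporter in which regulatory sequence of a collagen gene drives GFP, chiefly in fibroblasts. One heart was healthy and not ligated (control, n = 1). The others had a permanent ligation of the left anterior descending coronary artery and were taken at 3 days post-infarction (3 dpi, n = 1) or at 5 dpi (n = 2, a female-labelled and a male-labelled heart). Each heart gave 1 section, so control and 3 dpi have no replicate. Where 3 values stand together below, they are those of 3 dpi, the female-labelled and the male-labelled heart, in that order.

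After quality limits 1146 spots remained in the control, and 1741, 1535 and 1423 in the infarcted sections, with 6250183 to 11010109 UMIs (unique molecular identifiers, one for each captured transcript) per section. Cardiomyocyte markers were present in each. Of the 4 Y-linked genes checked together, the female-labelled heart held 704 UMIs and the male-labelled heart 1, with 0 in the other sections, so at 5 dpi these genes go against the sex labels, which serve here as names only. Mitochondrially encoded UMIs made up 40.1% in the control and 21.4%, 13.3% and 14.3% in the infarcted sections, and levels are therefore given as CPM, counts scaled to a common total of UMIs outside those genes. A spot holds several cells, and fewer cells of a type cannot be told apart from less RNA per cell.

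Several members carry an iron responsive element, a hairpin with a CAGTGN loop to which iron regulatory proteins bind when iron is low. Bound at the 5′ end of an mRNA it blocks translation, and bound at the 3′ end it protects the mRNA from decay. The hairpin was searched as a C, 5 bases, the loop and 5 bases that pair with those before it (G with T allowed), on the transcript strand of untranslated regions annotated by GENCODE on GRCm38. A match describes these letters and is not a measured site. The sites of the ferritin chains and ferroportin are shown because these genes share a match at the 5′ end, with the loop in capitals.
Ftl1, chr7:45459778-45459807, minus strand: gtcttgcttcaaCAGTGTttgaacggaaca
Fth1, chr19:9982732-9982761, plus strand: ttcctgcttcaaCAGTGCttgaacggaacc
Slc40a1, chr1:45925464-45925493, minus strand: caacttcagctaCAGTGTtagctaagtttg

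Tfrc had 4 matches in its 3′ untranslated region, all on the plus strand. They are shown because Tfrc was lower in the infarct zone than in the remote zone (both defined below), where the ferritin chains were higher.
Tfrc, chr16:32631219-32631248: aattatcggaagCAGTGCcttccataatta
Tfrc, chr16:32631598-32631627: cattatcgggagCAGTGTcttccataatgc
Tfrc, chr16:32631663-32631692: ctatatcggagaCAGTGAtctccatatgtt
Tfrc, chr16:32631710-32631739: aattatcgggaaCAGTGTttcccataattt

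Of all genes with an annotated 5′ untranslated region, 28 of 20831 (0.134%) held a match, and 127 of 20911 (0.607%) held one at the 3′ end. Hmox1, Blvrb and Slc11a1 had none in either region, which says only that these letters are not in the annotated sequence. Of 66 other heme and iron genes searched, 1 had a match at the 5′ end (Alas2, the erythroid enzyme of heme synthesis) and 1 at the 3′ end (Bola3, an iron-sulfur cluster factor).

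Heme breakdown was led by Hmox1 (ENSMUSG00000005413), the inducible heme oxygenase. It stood at 8.02 CPM in the control, from 30 UMIs (95% Poisson interval 5.41 to 11.4), and at 384, 445 and 238 CPM in the infarcted hearts. The control was thus far below each of them, by 47.9-fold (33.5 to 71.1), 55.6-fold (38.9 to 82.5) and 29.7-fold (20.8 to 44.2). Intervals here and below cover counting error only. Blvrb (ENSMUSG00000040466), a biliverdin and flavin reductase abundant in red cells, was at 38.5 CPM in the control and at 79.4, 112 and 88.4 CPM after infarction, 2.06 to 2.92 times the control.

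The storage genes held most of the UMIs of the group. Ftl1 (ENSMUSG00000050708), the ferritin light chain, was at 764 CPM in the control and at 6190, 9722 and 6750 CPM after infarction, between 8.10 and 12.7 times the control. Fth1 (ENSMUSG00000024661), the heavy chain with the ferroxidase activity, was already at 5266 CPM in the control and reached 5702, 7694 and 8719 CPM, at most 1.66 times the control, or 2.37 times over all UMIs. Ftl1-ps1, a processed copy of Ftl1, has its own row in the tables, with 0.559 UMIs per 100 of Ftl1 in the control and at most 0.639 in any zone. How reads were divided between the pair is not given in the sources used here, and the Ftl1 level is uncertain to that extent.

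Export, uptake and phagosomal transport were measured from fewer UMIs. Slc40a1 (ENSMUSG00000025993), ferroportin, was at 7.48 CPM in the control, from 28 UMIs, and at 14.2, 17.5 and 10.7 CPM after infarction, and the interval of the last ratio (1.43, 0.926 to 2.27) includes no difference. With all UMIs as the denominator, mitochondrial ones included, that ratio was 2.05 (1.33 to 3.25). Tfrc (ENSMUSG00000022797), the transferrin receptor, went from 53.4 CPM in the control to 51.8, 21.6 and 35.8 CPM. On this scale its ratio to the control was 0.970 (0.818 to 1.15) at 3 dpi, and 0.404 (0.331 to 0.493) and 0.671 (0.559 to 0.806) at 5 dpi. Over all UMIs the ratios were 1.27 (1.07 to 1.51), 0.585 (0.479 to 0.714) and 0.960 (0.80 to 1.15), so the female-labelled heart alone lay below the control with either denominator. Slc11a1 (ENSMUSG00000026177), which carries metal ions out of the phagosome of macrophages and neutrophils, was at 2.94 CPM in the control, from 11 UMIs, and at 34.0, 40.2 and 24.8 CPM after infarction.

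Between the times, whole-section levels depend on how much of a section was infarct zone (50.7%, 69.1% and 48.1% of spots by the definition below). The 5 dpi pair averaged 342 ± 146 CPM for Hmox1, 14.1 ± 4.81 CPM for Slc40a1 and 32.5 ± 10.9 CPM for Slc11a1 (SD, n = 2), and the 3 dpi value lay inside each of these pairs. Within the infarct zone it lay outside them, above for Hmox1 and Slc11a1 and below for Slc40a1. For Slc11a1 its interval there (43.9 to 56.5 CPM) overlapped that of the female-labelled heart (42.8 to 52.8 CPM). For Slc40a1 its interval (12.5 to 19.7 CPM) overlapped that of the male-labelled heart (12.9 to 20.3 CPM). For Ftl1 (8236 ± 2101 CPM), Fth1 (8206 ± 725 CPM) and Blvrb (100 ± 16.9 CPM) the 3 dpi section lay below both 5 dpi hearts, and for Tfrc (28.7 ± 10.1 CPM) above both. With 1 heart at 3 dpi, no difference between times was tested.

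**Figure D1:**
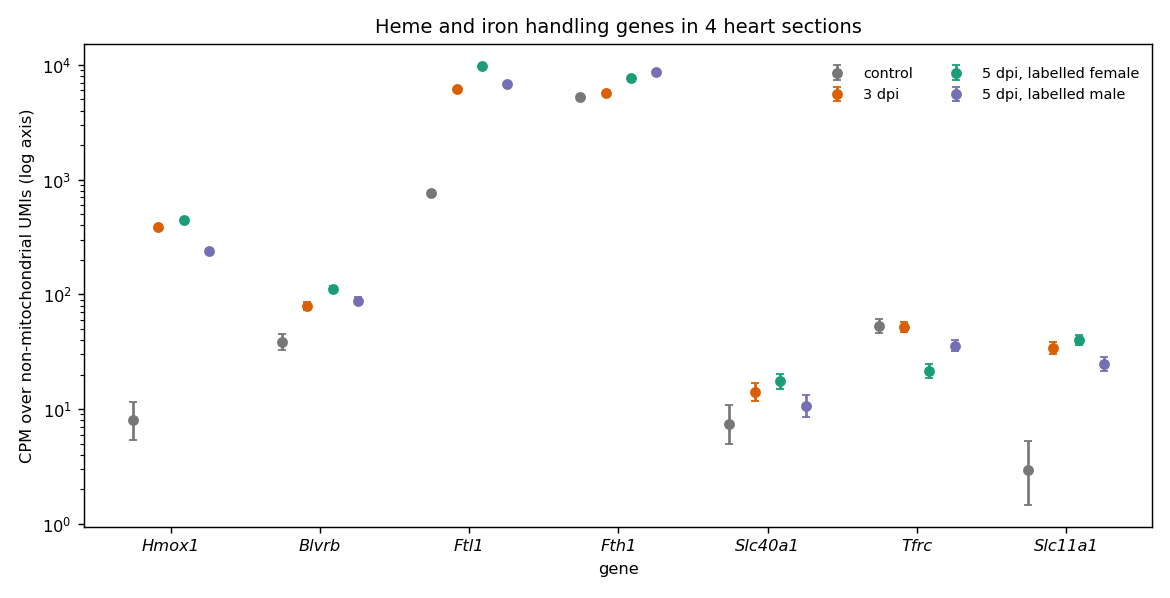
Level of each gene in the 4 sections, in CPM over non-mitochondrial UMIs on a log axis, with bars for the exact 95% Poisson interval where wider than the point. Hmox1, Ftl1 and Slc11a1 stood furthest above the control in each infarcted section, Fth1 was high throughout, and Tfrc was lowest at 5 dpi.

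Zones describe where in the section these levels lay. Spots counted as low when 12 cardiomyocyte genes took a share of their UMIs below 0.5 times the section's 90th percentile. Connected patches of at least 10 low spots made up the infarct zone (IZ, 882, 1061 and 684 spots). Spots that were not low formed border zone 2 (BZ2) within 2 grid steps of it, border zone 1 (BZ1) at 3 to 4 steps, and the remote zone (RZ) farther off. Low spots in smaller patches (23, 41 and 10) were in no zone. Between IZ and RZ, 26.8% of 9444 genes tested were higher in IZ and 27.0% lower, and as the zones rest on the share by which the members were selected, nothing is read from where the members stand among them.

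Hmox1 UMIs lay almost wholly in the infarct zone, with 95.5%, 98.0% and 96.2% of them in IZ. Its level in RZ was 21.8, 33.4 and 18.5 CPM, and in IZ it was 615, 554 and 394 CPM, which is 28.2, 16.6 and 21.3 times as high. Even in RZ it was 2.72 (1.58 to 4.70), 4.17 (2.40 to 7.22) and 2.31 (1.43 to 3.79) times the control. Within IZ it climbed further with distance from the border. Spots 1 to 2 steps inside had 219, 69.8 and 59.0 CPM, those 3 to 4 steps inside 364, 103 and 92.0 CPM, and those over 4 steps inside 1204, 698 and 467 CPM. Cardiomyocyte genes moved with this distance, from 3.13%, 2.35% and 2.95% of UMIs in the outermost to 1.25%, 0.339% and 0.541% in the innermost spots, and their part in the gradient was not tested. Blvrb was at 54.9, 44.2 and 47.9 CPM in RZ and at 93.2, 127 and 116 CPM in IZ, ratios of 1.70, 2.87 and 2.41.

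Of the ferritin chains, Ftl1 had the steeper profile. It was at 1355, 1276 and 1233 CPM in RZ and at 9078, 11803 and 10546 CPM in IZ, and BZ2 was already 1.80, 1.89 and 1.73 times RZ. Fth1 was at 4215, 3780 and 5324 CPM in RZ and at 6823, 8770 and 11185 CPM in IZ. Its BZ2 level was 0.934 (0.899 to 0.970), 0.896 (0.849 to 0.945) and 0.975 (0.934 to 1.02) times RZ. The heavy chain thus showed no step up toward the border, but a slight step down at 3 dpi and in the female-labelled heart. Light chain UMIs per 100 heavy chain UMIs were 14.5 in the control. They were 32.1, 33.8 and 23.2 in RZ, 47.4, 47.4 and 35.8 in BZ1, 61.9, 71.1 and 41.1 in BZ2 and 133, 135 and 94.3 in IZ, in the same order of zones in each heart. As the capture of these transcripts can differ, this ratio is read only for its change between zones.

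Slc40a1 was low in RZ, at 11.3 CPM at 3 dpi, 1.19 CPM from 1 UMI in the female-labelled heart and 3.22 CPM in the male-labelled heart, and it was at 15.8, 21.0 and 16.3 CPM in IZ. The ratio at 3 dpi was 1.40 (0.801 to 2.62), which includes no difference, that from 1 UMI was 17.6 (3.11 to 699), and the last was 5.07 (2.45 to 12.1). Slc11a1 was at 7.53, 9.55 and 4.43 CPM in RZ and at 49.9, 47.6 and 38.6 CPM in IZ, 6.63, 4.98 and 8.72 times as high.

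Tfrc was the member with the opposite profile, lower in IZ than in RZ in each heart. RZ held 67.0, 115 and 82.2 CPM and IZ 42.3, 8.11 and 7.23 CPM, so RZ exceeded IZ 1.58-fold at 3 dpi but 14.1- and 11.4-fold at 5 dpi. At 3 dpi BZ1 and BZ2, at 61.1 and 69.0 CPM, stayed near RZ. The RZ level was 1.25 (0.965 to 1.62) times the control at 3 dpi, which includes no difference, and 2.14 (1.66 to 2.75) and 1.54 (1.26 to 1.88) times at 5 dpi. The times also stood apart in spots of intermediate cardiomyocyte share, 0.25 to 0.5 of the 90th percentile, with 67.9 CPM at 3 dpi against 12.3 and 23.8 CPM.

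**Figure D2:**
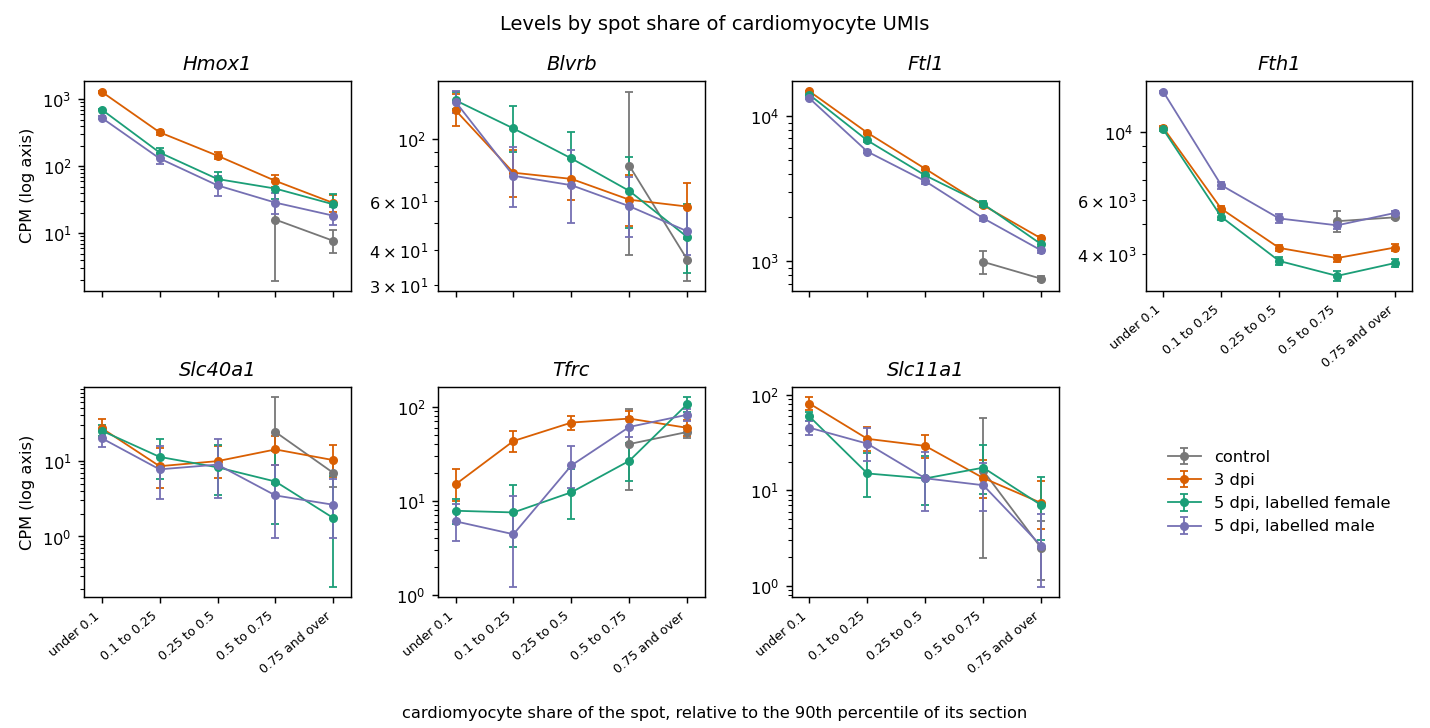
Level of each gene in spots grouped by their share of cardiomyocyte UMIs relative to the 90th percentile of the section, in CPM on a log axis, with 1 line per section and bars for the exact 95% Poisson interval. Hmox1 and Ftl1 had their highest level at the lowest share in each infarcted section, Fth1 varied little above a share of 0.25, and Tfrc ran in the opposite direction.

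Markers of other cells moved between the same zones. The summed level of 4 markers of recruited macrophages (Spp1, Gpnmb, Trem2 and Ccr2) was 132, 95.5 and 51.6 CPM in RZ and 3384, 3718 and 2842 CPM in IZ, with 0 of them at 0 in either zone. That of C1qa, C1qb and C1qc, complement genes of macrophages, was 886, 1033 and 792 CPM in RZ and 2806, 4492 and 4726 CPM in IZ. Markers of neutrophils were at 21.8, 80.0 and 25.0 CPM in RZ, with 1 of 4 at 0 in the male-labelled heart, and at 253, 245 and 223 CPM in IZ. Markers of fibroblasts were at 2516, 3489 and 2626 CPM in RZ and at 9299, 16911 and 15177 CPM in IZ. Markers of endothelial cells were lower in IZ, as Tfrc was, at 1351, 754 and 1011 CPM against 1550, 2109 and 3215 CPM. Hemoglobin genes were lower as well, at 3331, 22826 and 11896 CPM against 6873, 33250 and 15423 CPM. The part of these cells in the levels of the members was not tested between zones, and the comparisons that follow stay within IZ.

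Infarct zone spots were split, within each section, into spots rich and spots poor in the UMIs of a marker set. Spots were ranked inside 16 strata of cardiomyocyte share and UMI depth, the rich ones lying above the median of their stratum. Distance from the infarct border, along which Hmox1 rose, was not among the strata, and its part in the splits was not tested. UMIs were summed per section over rich and over poor spots, and the 6 sums were compared across all genes by the quasi-likelihood test of edgeR with section as a block and Benjamini-Hochberg adjustment at 0.05. The 4 splits ask whether each member goes with red cell RNA, with complement-producing macrophages, with neutrophils or with dividing cells.

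The erythroid split, by Hba-a1, Hba-a2, Hbb-bs and Hbb-bt, called Hmox1 and Slc40a1 and none of the other members. Hmox1 was at 877, 691 and 557 CPM in rich spots and at 370, 420 and 232 CPM in poor spots. It was higher in rich spots in 3 of 3 hearts, 2.09-fold in the fit (log2 1.06, SE 0.07, edgeR quasi-likelihood, Benjamini-Hochberg adjusted p 1.90e-15). Ftl1 was at 9307, 11046 and 10472 CPM in rich and at 8865, 12544 and 10619 CPM in poor spots and did not pass (log2 -0.03, SE 0.04), nor did Fth1 (-0.01, SE 0.05). Blvrb, the other member of heme breakdown, was at 109, 120 and 121 CPM in rich and at 78.3, 133 and 110 CPM in poor spots and did not pass either (log2 0.12, SE 0.085). Slc11a1 did not pass (0.27), although it did at an infarct limit of 0.33 (0.42) and without strata (0.53). In all 2 of 7 members were called, where 0.549% of all genes were higher in rich spots.

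The other one called was Slc40a1, at 24.5, 21.5 and 25.2 CPM in rich and at 7.75, 20.5 and 7.43 CPM in poor spots (log2 0.86, SE 0.21, edgeR quasi-likelihood, Benjamini-Hochberg adjusted p 0.0265). The female-labelled heart showed almost no difference. The call was lost without the 3 dpi section (log2 0.61), without the male-labelled heart (0.58), with DESeq2 (1.14) and at an infarct limit of 0.67 (0.85). It was also lost with equal numbers of rich and poor spots drawn from each stratum (0.90), an alternative added after seeing the data. Without the female-labelled heart it was kept, at a log2 of 1.71. Cardiomyocyte genes made up 2.05%, 0.745% and 0.896% of UMIs in rich and 2.04%, 0.60% and 0.839% in poor spots. Neutrophil markers were 1.47, 1.71 and 1.96 times as high in rich as in poor spots, C1q genes 0.962, 0.871 and 0.888 times and recruited macrophage markers 1.11, 0.905 and 1.09 times, and the part of the neutrophil markers was not tested. Of 56 other heme and iron genes tested, 3 were higher and 0 lower: Alas2 (log2 3.21), Slc25a37, the mitochondrial iron importer mitoferrin (0.61), and Slc48a1, which moves heme out of the phagolysosome (0.39).

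**Figure D3:**
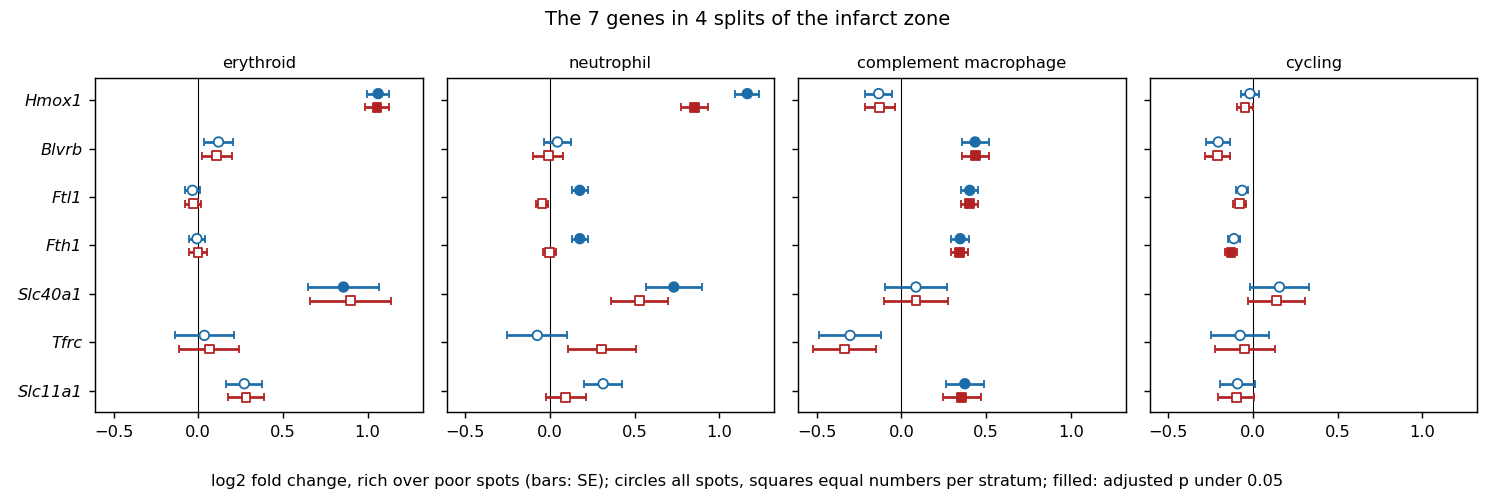
Log2 fold change of each gene between rich and poor spots of the infarct zone in the 4 splits, by edgeR. Bars are the SE of the fit, which is not the spread between hearts. Circles use all spots and squares equal numbers of rich and poor spots per stratum, and filled symbols passed an adjusted p of 0.05. Hmox1 was on the right in the erythroid and neutrophil splits but not with complement macrophages, where both ferritin chains and Blvrb were.

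In the neutrophil split, by S100a8 and S100a9, Hmox1 was again higher, at 944, 739 and 667 CPM in rich and at 408, 414 and 210 CPM in poor spots. The log2 was 1.17 (SE 0.07, edgeR quasi-likelihood, Benjamini-Hochberg adjusted p 7.82e-21, 3 of 3 hearts). In all 4 of 7 members were called higher, against 2.21% of all genes, the others being Slc40a1 (0.73), Fth1 (0.18) and Ftl1 (0.18). The ferritin calls were both lost without the 3 dpi section (0.12 and 0.12), and those of Slc40a1 (0.58) and Ftl1 (0.17) without the male-labelled heart. An infarct limit of 0.33 also lost both ferritin calls (Ftl1 0.090, Fth1 0.11), and DESeq2 lost all but that of Hmox1. In spite of the strata, rich spots held fewer cardiomyocyte UMIs, 1.63%, 0.50% and 0.582% against 2.31%, 0.801% and 1.06%. With equal numbers per stratum, poor spots were at 1.67%, 0.466% and 0.579%, and Hmox1 alone was called (log2 0.85). Hemoglobin genes were at 5176, 28206 and 10727 CPM in rich and 2175, 18775 and 12685 CPM in poor spots, recruited macrophage markers were 1.53, 1.02 and 1.24 times as high in rich as in poor spots, and the part of either was not tested. Slc11a1, a gene of neutrophils as well as macrophages, had a log2 of 0.31 that did not pass, although it did without the female-labelled heart (0.53), at an infarct limit of 0.67 (0.41), without strata (0.58) and with only the richest and poorest spots compared (0.42). Of 57 other heme and iron genes tested, 4 were higher and 2 lower, beside 248 higher and 537 lower of 11203 genes. The lower calls were no more frequent than over all genes. Hp, which encodes haptoglobin, a hemoglobin binder also stored in neutrophil granules, was higher in rich spots (0.80), as were Fbxl5, an iron sensor of the ubiquitin system (0.40), Alas2 (0.39) and Slc48a1 (0.29), while Hjv, a co-receptor of hepcidin regulation that muscle also makes (-0.56), and Bola3 (-0.35) were lower. With equal numbers per stratum Alas2 (0.64) alone of these was called, and Hp (0.69), Fbxl5 (0.38), Slc48a1 (0.24), Hjv (0.047) and Bola3 (-0.065) were not.

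The complement macrophage split, by C1qa, C1qb and C1qc, called both ferritin chains, Blvrb and Slc11a1. Ftl1 was at 10114, 13326 and 12244 CPM in rich and at 8095, 10290 and 8889 CPM in poor spots (log2 0.40, SE 0.05, edgeR quasi-likelihood, Benjamini-Hochberg adjusted p 9.06e-09, higher in 3 of 3 hearts). Blvrb (0.44), Slc11a1 (0.37) and Fth1 (0.35) were also called higher, so 4 of 7 members were, against 4.68% of all genes. The Slc11a1 call was lost without the female-labelled heart (0.22), with DESeq2 (0.35), at an infarct limit of 0.33 (0.35) and with only the richest and poorest spots compared, the middle ones left out (0.40), and the Blvrb call with DESeq2 (0.43). Hmox1 was at 632, 582 and 289 CPM in rich and at 599, 525 and 496 CPM in poor spots and was not called (log2 -0.13). It did not go 1 way. It was called lower without the 3 dpi section (-0.25) and without the female-labelled heart (-0.30), and higher without strata (0.56). Without the male-labelled heart it was at 0.13 and not called. Tfrc did not pass (-0.30), although it was called lower without strata (-0.87).

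Hemoglobin genes were 0.833, 0.314 and 0.546 times and cardiomyocyte genes 0.954, 0.699 and 0.779 times as high in C1q-rich as in poor spots. Recruited macrophage markers were 1.27, 1.28 and 1.48 times, resident macrophage markers 1.27, 1.51 and 1.56 times and neutrophil markers 0.590, 1.13 and 0.641 times as high, and the part of these cells was not tested. Of 56 other heme and iron genes tested, 5 were higher and 1 lower, beside 511 higher and 271 lower of 10929 genes. The 1 lower call was no more than the share over all genes. Trf, which encodes transferrin (log2 0.76), Hfe (0.44), Hmox2, the constitutive heme oxygenase (0.27), Iscu (0.22) and Lrp1, the receptor for heme bound to hemopexin (0.19), were higher, and Alas2 (-1.51) was lower. Of 11 alternatives Trf and Alas2 were called in 10, Hfe in 8, Hmox2 in 6, Lrp1 in 5 and Iscu in 2, and the Iscu call was lost with equal numbers per stratum (0.22).

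The cycling split, by 6 cell division genes, called 0 of 7 members by the quasi-likelihood test of edgeR, where 1.98% of all genes were called in either direction. At an unadjusted p under 0.05 there were 2 members, Fth1 (log2 -0.11) and Blvrb (-0.20), and DESeq2 called 0. Tfrc, by which dividing cells take up iron, was at 41.8, 8.28 and 6.32 CPM in rich and at 42.7, 7.94 and 8.11 CPM in poor spots (log2 -0.08, SE 0.17), from 15 to 108 UMIs in a sum. It did not pass, and the 95% interval of its fold, rich over poor, taken from the SE of the fit, was 0.753 to 1.20. Of 56 other heme and iron genes tested, Trf alone was called, lower in rich spots (-0.45), a share near that of all genes. With equal numbers per stratum (-0.13) and with no filter on low counts (-0.11) Fth1 was called lower, and without the female-labelled heart Hmox1 was (-0.26). Without strata Ftl1 and Fth1 were called higher instead.

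Genes of like pattern were sought over tiles of the infarct zone, blocks of 6 array rows by 12 columns, of which 27, 34 and 20 held at least 15 spots. The measure was Pearson's r of log2(CPM + 1) within a section, averaged over the infarcted sections, among 5701 genes at 20 CPM or more in IZ. Neighbouring tiles share tissue, library and composition, so the values describe these sections. Hmox1 was most like Prdx1, a peroxiredoxin (mean r 0.851), Ccl6, a myeloid chemokine (0.836), and Pf4 (0.822). Ftl1 was most like Fth1 (0.937), Psap (0.931) and Ctsb (0.915), the last pair encoding lysosomal proteins, and Fth1 after Ftl1 most like Cyba (0.879) and Ctss (0.874). Slc11a1 was most like Ms4a6d (0.733), Itgb2 (0.686) and Creg1 (0.681), and Blvrb like Lyz2 (0.547), Fcgr2b (0.542) and Cd300c2 (0.535). For Tfrc (Speg, Nfs1 and Gpc4) and Slc40a1 (Lsm3, Elf2 and Hnrnpdl) the highest values were 0.513 and 0.504, and in these sparse counts they are not read. Among the members, Hmox1 had a mean r of 0.71 with Ftl1, 0.70 with Fth1 and 0.64 with Slc11a1. Its values were lower with Slc40a1 (0.39), Blvrb (0.35, from -0.0035 to 0.54 by section) and Tfrc (-0.081). Tfrc had 0.032 with Ftl1 and -0.0083 with Fth1.

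The other genes of heme and iron metabolism, 68 in 6 groups that hold none of the members, were compared between IZ and RZ. UMIs were summed over each of the 4 zones of the infarcted sections and tested by edgeR in the same way. Of 52 that passed the filter on low counts, 4 (7.69%) were higher in IZ and 25 (48.1%) lower, beside 26.8% and 27.0% of all genes tested, and their median log2 fold change was -0.40 beside 0.05 over all genes. TMM scaling lowers each log2 value by 0.42 relative to CPM. Cardiomyocyte markers were at 98085, 86902 and 81801 CPM in RZ and at 20457, 6719 and 8676 CPM in IZ, and their part in these counts was not tested. With the 12 markers left out of counts and library sizes 30 genes were called in place of 29.

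Heme synthesis was lower in IZ in 7 of 9 genes tested, with 0 higher. Alas1, the first enzyme of the pathway outside red cells, was at 161, 140 and 145 CPM in RZ and at 47.1, 29.8 and 28.7 CPM in IZ (log2 -2.50, SE 0.16, edgeR quasi-likelihood, Benjamini-Hochberg adjusted p 4.15e-11, lower in 3 of 3 hearts). Fech, which inserts the iron (-1.08), Urod (-0.77) and Alad, at 58.1, 37.1 and 48.5 CPM in RZ and 37.5, 30.3 and 30.2 CPM in IZ, were lower as well. Mitochondrial iron and iron-sulfur cluster genes were lower in 13 of 16, with 0 higher. Fdx1, a ferredoxin (-2.43), and Bola3 (-1.96) had the lowest values, and the smallest drops among those lower in 3 of 3 hearts were those of Iscu, the scaffold protein (-0.63), and Abcb10, a transporter of the inner mitochondrial membrane, at 24.9, 25.1 and 16.2 CPM in RZ and 13.8, 16.1 and 12.8 CPM in IZ.

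Heme breakdown, transport and scavenging had 2 genes higher, 1 lower and 5 not called of 8. Hp was at 3.02, 5.99 and 2.42 CPM in RZ and at 38.9, 98.4 and 107 CPM in IZ (log2 4.18, SE 0.39, edgeR quasi-likelihood, Benjamini-Hochberg adjusted p 1.45e-08, higher in 3 of 3 hearts), and Lrp1 rose by 1.17 on the log2 scale. Cd163, the receptor for hemoglobin bound to haptoglobin, was lower (-1.42), but its call was lost without the male-labelled heart (-1.05). It rested on 12, 11 and 19 UMIs in RZ and 26, 63 and 11 in IZ. Hmox2 was at 89.9, 86.2 and 94.1 CPM in RZ and at 95.1, 96.0 and 99.0 CPM in IZ and did not pass (log2 -0.30), a span far narrower than that given for Hmox1. Blvra, the other biliverdin reductase, had a log2 of 0.36 (edgeR quasi-likelihood, Benjamini-Hochberg adjusted p 0.0507) and passed without the 3 dpi section (0.48), at an infarct limit of 0.33 (0.47) and without the cardiomyocyte markers (0.37). Hpx, which encodes hemopexin, was not tested, with at most 0.827 CPM in IZ or RZ.

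Iron uptake and reduction had 1 gene higher and 1 lower of 6. Trf was higher (log2 0.75), with its call lost without the female-labelled (0.70) or the male-labelled heart (0.51) and at an infarct limit of 0.67 (0.53), and Steap4, a metalloreductase, was lower (-1.15). Slc11a2, the relative of Slc11a1 that carries iron out of the endosome, had a log2 of -0.02 and did not pass. Of the 3 storage and chaperone genes tested 0 were called, among them Ncoa4, which delivers ferritin to the lysosome (0.06).

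Export and regulation had 1 gene higher and 3 lower of 10. Bach1, the repressor of Hmox1 that heme displaces, was at 12.8, 10.8 and 8.08 CPM in RZ and at 24.9, 31.1 and 23.4 CPM in IZ (log2 0.90). Hjv was at 198, 160 and 149 CPM in RZ and at 53.3, 20.2 and 20.1 CPM in IZ (log2 -2.95). Hfe (-0.62) and Cp, the ferroxidase ceruloplasmin (-0.69), were also lower. Cp was lower in 2 of 3 hearts by CPM, with 23.8 CPM in IZ and 21.4 CPM in RZ of the male-labelled heart, and its call was lost without the 3 dpi section (-0.49), without the female-labelled heart (-0.66) and with no replicate block (-0.63). The iron regulatory proteins Aco1 (-0.22) and Ireb2 (0.48) and the oxidative stress factor Nfe2l2 (0.20) did not pass, although Ireb2 did at an infarct limit of 0.33 (0.48).

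**Figure D4:**
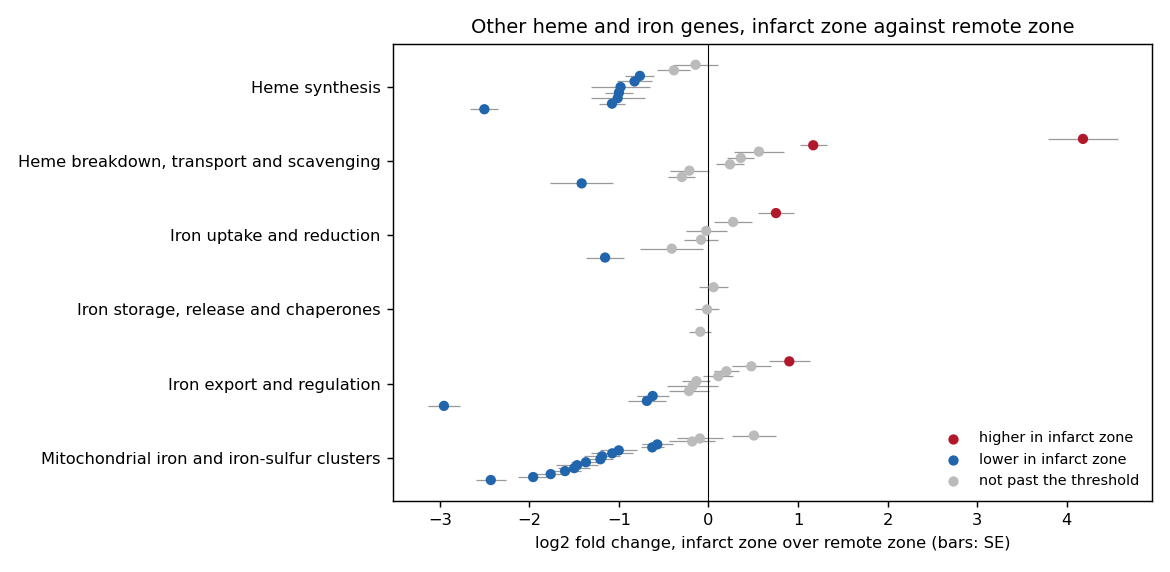
Log2 fold change, infarct zone over remote zone, of 52 other heme and iron genes in 6 groups, by edgeR with bars for the SE. Points are coloured by whether the gene passed an adjusted p of 0.05 and in which direction. Genes of heme synthesis and of iron-sulfur clusters lay to the left (7 of 9 and 13 of 16 called lower), and Hp lay furthest to the right.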

How the data were processed

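The authors deposited raw UMI counts per gene and spot, 1 matrix per section, made with Space Ranger 1.3.1 per the file headers, and position lists with other values (tissue marks set by hand, array row and column). The submitters' processing notes name mm10 and the methods an Ensembl-based reference with GFP added, so no coordinate is taken from the count files. Marked spots were kept under the limits of the methods: a minimum of 500 UMIs and 250 genes, and no more than 50% mitochondrial UMIs. In the male-labelled heart 623 unmarked spots were left out. Groups came from the sample labels. Median UMIs per kept spot ran from 4967.5 to 6935 by section.

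The members, lists, zones and splits were chosen with earlier results of these data known. Summed counts were tested with edgeR 4.0.16 (limma 3.58.1, R 4.3.3): TMM, filterByExpr, section as a block because zones and spot classes of 1 section come from 1 heart, quasi-likelihood test, Benjamini-Hochberg adjustment over all genes tested. With 3 hearts at 2 times and section as a block, p-values rest on differences within sections, with variance information shared across genes. They do not measure the spread between hearts, which the values per heart show. In the erythroid split Slc40a1 had log2 ratios of 1.66, 0.066 and 1.76 beside an SE of 0.21. Hmox1 had 1.25, 0.72 and 1.26 beside an SE of 0.066. DESeq2 1.42.0 was an alternative, beside other filters, infarct limits, strata, spot classes, denominators and left-out sections, whose effect the closing section gives. Levels and plots were made in Python 3.11.15 (pandas 2.3.3, NumPy 2.4.6, matplotlib 3.10.9, SciPy 1.17.1).

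Genes were named by rule: the members; in each group of other heme and iron genes the 2 highest and 2 lowest among those called and of 1 direction in 3 of 3 hearts, with 12 fixed genes; and the 3 genes most like each member over tiles. Other heme and iron genes named in the splits were taken from those called there after their values were seen. Intervals of levels are exact Poisson and those of ratios exact binomial, at 95%, for counting error only. Some genes and 1 further split of the infarct zone are not reported here.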

Additional observations from a re-analysis of the deposited data

Results flagged for a closer look

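Counts were also present outside the spots marked as tissue, which entered no comparison. In the male-labelled heart 560 unmarked spots met the quality limits, and in them Hmox1 was at 263 CPM, Blvrb at 98.3 CPM, Ftl1 at 6181 CPM, Fth1 at 6705 CPM and Slc11a1 at 48.0 CPM, each above the interval of the control section. Slc40a1 and Tfrc were not above it, at 10.4 and 15.8 CPM.

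In some comparisons the 3 dpi section moved one way and both 5 dpi sections the other, and none of these differences was tested. Values are again in the order 3 dpi, female-labelled and male-labelled heart. Slc40a1 in the remote zone was 1.51 times the control at 3 dpi (0.749 to 2.92, which includes no difference) and 0.160 and 0.431 times at 5 dpi. Between erythroid-rich and erythroid-poor spots the log2 ratios of CPM were 0.070, -0.18 and -0.020 for Ftl1, 0.19, -0.19 and -0.046 for Fth1, and -0.11, 0.17 and 0.59 for Tfrc. Between neutrophil-rich and neutrophil-poor spots Tfrc had -0.27, 0.46 and 0.49. Hpx, with at most 0.827 CPM in either zone, had log2((CPM + 1) ratios) of -0.81, 0.62 and 0.87 between infarct and remote zone.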

How the results depend on the processing

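The number of members called in the erythroid, complement macrophage, neutrophil and cycling splits was 2, 4, 4 and 0 of 7. With no replicate block for the section it was 0 in each, and other heme and iron genes called between zones were 27 in place of 29. DESeq2 called 1, 2, 1 and 0 members. Leaving out 1 section gave 1 to 2, 4 to 5, 2 to 5 and 0 to 1 members, and 24 to 28 other genes. Equal numbers per stratum, chosen after seeing the data, gave 1, 4, 1 and 1. An infarct limit of 0.33 gave 2 in the neutrophil split, and 0.67 gave 1 in the erythroid split. The cycling split gave 1 with no filter on low counts and 2 without strata.

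A member's value in a split counted as reversed when its sign changed and it passed in the main run or in the alternative. Other sign changes, which passed in neither run, are not listed. Reversed values were Hmox1 in the complement macrophage split (log2 0.56) and Ftl1 and Fth1 in the cycling split (0.29 and 0.20) without strata, and, with equal numbers per stratum, Ftl1 and Fth1 in the neutrophil split (-0.046 and -0.0030). The cause was not tested. Over all UMIs the mean of the median log2 fold over control was 1.74 in place of 1.26. The Hmox1 calls in the erythroid and neutrophil splits were lost in no alternative run but the fit with no block. In the erythroid split its log2 ranged from 0.97 to 1.47. With the block its adjusted p ran from 1.85e-06 with DESeq2 to 1.15e-86 with edgeR without the female-labelled heart, and it did not pass with no block (0.999864), so the size of p is not read.

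Calls over all genes, 110, 782, 785 and 216 in the splits, were 0 with no block, 5, 143, 185 and 14 with DESeq2, and over the other alternatives 55 to 164, 403 to 1958, 92 to 1441 and 62 to 1108. The 28 and 11 UMIs of Slc40a1 and Slc11a1 in the control limit their ratios.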
